A study of Mus musculus with 25 samples.

Results

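CpG island shores are the stretches of moderately CpG-rich DNA that flank CpG islands. Here they were the unique CpGs on chromosomes 1 to 19 that the authors annotate as Shore, in a feature other than the 3'UTR and intergenic sequence, with an average coverage of 10 reads or more. This gave 34291 CpGs of the 283974 in the table. Of them, 8175 were promoter shores (1st exon 6185, 5'UTR 1352, TSS1500 476, TSS200 162, as the authors name the features around the transcription start) and 26116 were gene body shores, 76.2% of all. The rule uses annotation and coverage and no methylation level. For a test a CpG had to be read in 3 or more mice of each of the 5 groups that have them, which 4465 promoter and 15155 gene body shore CpGs were.

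The DNA came from bulk mammary fat pads of wild-type (wt) C57BL/6N mice, 1 library per mouse, studied by reduced representation bisulfite sequencing (RRBS). RRBS reads short MspI fragments, here of 40 to 170 bp, and gives at each CpG the share of reads that were methylated. After obesity on a 60% high-fat diet, mice were given Mediterranean-style food at 30% fewer calories (MCR, n = 3), low-fat food at 30% fewer calories (LFCR, n = 4), an unrestricted low-fat diet (LFD, n = 4) or intermittently restricted calories (ICR, n = 5), or were kept obese (Obese, n = 4). The Control mice (n = 5) were randomized to a control diet. In every group E0771 cells, a mouse mammary cancer line, had been injected into the 4th mammary fat pad 25 weeks after the first randomization, and the DNA is from the contralateral (9th) pad at endpoint. The sample labels also carry the cell line, the cell type mouse mammary cancer and the word tumor. Since the mice on the 4 weight-loss diets had all been obese, the diet and the earlier high-fat feeding cannot be told apart in a comparison with Control. In bulk tissue a shift in the mix of cells and a change within cells cannot be told apart either. The labels number the mice and say nothing more of separate animals, so p-values measure the spread between these libraries.

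Methylation of cytosine at CpGs is copied at each cell division by a maintenance methyltransferase and can be removed with the help of Tet enzymes. CpG islands at promoters are mostly kept free of it, gene bodies and the DNA far from islands mostly carry it, and shores lie between these states. Shores are known as places where methylation differs between tissues and between normal and cancer cells.

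The sequence of a few shore sites shows what was read. Of the tested shore CpGs, 640 lie in a RefSeq promoter window of 250 bases before to 50 after a start site (build GRCm38.p6, the same coordinates as mm10), in windows of 343 genes, and all 689 pairings of a CpG with a window whose next base is also in it read CG at the table's position. The 8 sites printed here are those of largest difference in a restricted set, 4 higher and 4 lower in MCR than in Control and 1 per gene. The set held called CpGs outside the 5'UTR that carry the window's gene name and have a value in every MCR and Control mouse. They also had to lie at least 14 bases inside the window. Sites on 1 of the chromosomes were left out, so a larger difference there would not be shown. Each is 30 bases of RefSeq sequence on the gene's strand, 5′ to 3′, with the measured CpG in capitals.

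Rgs19 (chr2:181691804-181691833, minus strand): ggaacccaagtttcCGgcttctcagggact
Irx3os (chr8:91803129-91803158, plus strand): atcaaaccggaactCGccagcttggaggaa
Hes7 (chr11:69120429-69120458, plus strand): atctaggcagcacgCGctgagtccaccgaa
Nfatc2 (chr2:168590502-168590531, minus strand): cctaaggtagagctCGcaggcaacagcttc
Abr (chr11:76437265-76437294, minus strand): gggaaggaggaggaCGcagagggaggggag
Mxra8 (chr4:155839699-155839728, plus strand): aagcagttgagcagCGcagtgggcggggcc
Stpg1 (chr4:135495946-135495975, plus strand): agtggttgccatagCGaccgggcgggaggg
Il11 (chr7:4778143-4778172, minus strand): tataaccccccaggCGtacacactccctca

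The CpG of Rgs19, a regulator of G-protein signalling, lies 1 base upstream of the RefSeq start, though the authors annotate it as gene body. It had 80.9%, 78.3% and 76.5% in MCR mice, against 35.0%, 18.9%, 45.2%, 42.3% and 44.0% in Control mice. The CpG of Irx3os, an antisense transcript beside the homeobox gene Irx3, lies 193 bases upstream and had 50.8%, 42.9% and 55% in MCR mice, against 20.8%, 17.2%, 22.2%, 26.0% and 20.9% in Control mice. The groups did not overlap at either site, and the differences were 41.4 points (SE 9.07, limma adjusted p = 0.0029) and 28.1 points (SE 4.97, limma adjusted p = 0.00116). At Hes7, a transcriptional repressor of the somite clock, the level was 50.4%, 68.0% and 59.8% in MCR mice, against 28.0%, 27.9%, 35.5%, 44.0% and 33.8% in Control mice. At Nfatc2, a transcription factor of activated T cells, it was 22.5%, 54.5% and 25.7% in MCR mice, against 9.52%, 3.66%, 11.4%, 7.84% and 12.7% in Control mice. MCR mouse 95 was far above the other two at Nfatc2, and the differences were 25.6 points (SE 5.69, limma adjusted p = 0.00316) and 25.2 points (SE 5.77, limma adjusted p = 0.00366).

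Among the sites that were lower, the Abr CpG lies 26 bases downstream of the start of this regulator of small GTPases and had 4.12%, 14.5% and 24.7% in MCR mice, against 78.6%, 75%, 63.1%, 56.2% and 51.2% in Control mice. The Mxra8 CpG lies 33 bases downstream of the start of this membrane protein of the cell matrix and had 10.8%, 9.85% and 6.38% in MCR mice, against 58.5%, 65.0%, 58.1%, 43.0% and 66.1% in Control mice. Every MCR mouse was below every Control mouse at both, and the differences were -50.4 points (SE 9.59, limma adjusted p = 0.0015) and -49.1 points (SE 8.50, limma adjusted p = 0.0011). The level at Stpg1 was 26.0%, 12.9% and 27.3% in MCR mice, against 40%, 72.7%, 66.2%, 69.2% and 62.2% in Control mice, and at Il11, a cytokine of the interleukin 6 family, 14.8%, 16.9% and 14.5% in MCR mice, against 43.9%, 56.3%, 43.2%, 44.7% and 53.8% in Control mice. Control mouse 1 was the lowest of its group at Stpg1 and still above every MCR mouse, and the differences were -40 points (SE 8.51, limma adjusted p = 0.00271) and -33.0 points (SE 5.80, limma adjusted p = 0.00115). These CpGs were chosen for large differences in the same mice, so the separation of their groups adds no support.

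The promoter windows with a shore CpG stood between island and open sea windows in base composition, nearer to the open sea in GC content. The 529 windows that hold a shore CpG and no island CpG had a median GC content of 58.7% and 13 CpGs per window, against 67.0% and 28 in the 3204 windows with an island CpG, 57.0% and 9 in the 779 windows with an open sea CpG and 52.7% and 7 over all 32817 windows. The MspI site CCGG, which reads the same on both strands, was in 99.8% of the shore windows, 99.9% of the island windows, 99.7% of the open sea windows and 52.8% of all windows. RRBS reads only fragments cut at this site.

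The libraries of Obese mice 27, 28 and 40 and LFD mouse 46 stand apart and were left out of every comparison. At promoter shores under 5% in Control they averaged 48.0% to 48.9%, against 1.09% to 2.22% in the other 21 libraries. Over all promoter shores with a value their means were 51.6% to 56.7%, against 31.3% to 44.5%. They were set aside for these levels, which is a choice by measured values, and the comparisons with all 25 libraries stand in the closing section. The Obese group thus keeps mouse 22 alone and the LFD group keeps 3 mice. The 21 libraries had a value at 58.7% to 99.8% of the shores. The median average coverage was 38.3 reads at promoter shores and 38.9 at gene body shores. The depth of each library is unknown, so no interval for a single value is given. At the coverage limit, the 1198 shore CpGs of 10 to under 12 reads averaged 39.9% in Control and the 946 CpGs of 8 to under 10 reads, just outside, 35.6%.

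Shores were intermediate in mean level, between islands and open sea. In Control mice, over CpGs with a value in all 21 libraries, 25.6% of promoter shore CpGs were under 10% methylated and 6.64% over 90%. For gene body shores these shares were 19.8% and 7.43%, at islands in promoters 57.8% of CpGs were under 10% and 1.83% over 90%, and in the open sea of gene bodies 2.47% and 21.7%. Levels of 10 to 90% were held by 71.7% of shore CpGs and 70.3% of all CpGs. Within promoter shores the annotation went with the level. TSS200 CpGs averaged 10.3% in MCR and 14.6% in Control, 5'UTR CpGs 17.2% and 25.1%, TSS1500 CpGs 23.5% and 30.3%, and 1st exon CpGs 37.6% and 47.0%. The 1st exon gave 2629 of the 3436 promoter shore CpGs measured in all 21 libraries, and its level was near that of the gene body (36.7% in MCR and 45.4% in Control).

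Methylation was lowest beside the island and higher farther away, though not in every step from bin to bin. In gene body shores under 250 bases from the nearest island CpG of the table the mean was 22.8% in MCR and 29.6% in Control, and between 1500 and 1750 bases it was 50.2% and 61.6%. The difference between MCR and Control was -6.83 points in the nearest bin and -11.4 points between 1500 and 1750 bases. In promoter shores it was -7.22 points in the nearest bin and reached -13.2 points between 1250 and 1500 bases, a bin of 252 CpGs. The nearest island CpG was a median of 668 bases away for promoter shores and 882 for gene body shores. It lay more than 2000 bases away for 16.2% and 19.8%, because the table holds measured CpGs and no island edges. Closeness to a RefSeq start site went with low levels too. Promoter shores under 500 bases from a start site averaged 14.1% in MCR and 21.8% in Control, and those between 1000 and 2000 bases 44.5% and 54.6%. Gene body shores under 500 bases averaged 16.2% and 21.1%. The classes overlapped in position, with a start site a median of 1330 bases from promoter shores and 2050 from gene body shores. These bin means are descriptions and were not tested.

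**Figure D1:**
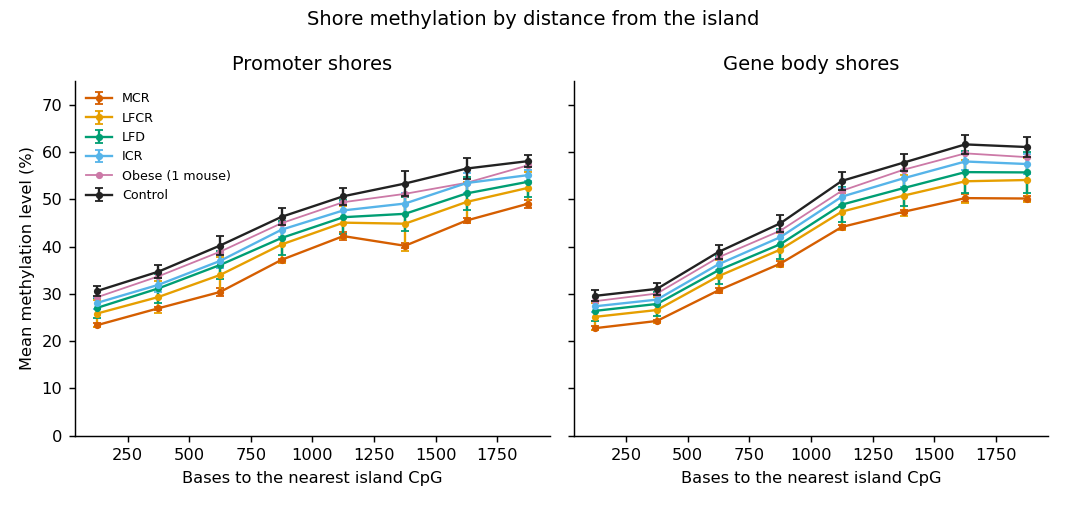
Mean methylation level in percent of promoter shore CpGs (left) and gene body shore CpGs (right) against distance in bases to the nearest island CpG, in bins of 250 bases. Lines are group means over mice, bars the SD between mice (none for the 1 Obese mouse). The bins end at 2000 bases. In both panels the level is lowest beside the island and higher at most steps outward. MCR runs lowest and Control highest, 22.8% and 29.6% in the nearest gene body bin.

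Every weight-loss diet had a mean shore level below that of Control, by like amounts in the CpGs annotated as promoter and as gene body. Over 3436 promoter shore CpGs the MCR mice had 32.7%, 32.9% and 33.5%, the LFCR mice 32.7%, 33.3%, 38.0% and 40.4%, the LFD mice 34.2%, 40.2% and 38.3% and the ICR mice 38.5%, 36.7%, 39.0%, 39.8% and 40.9%. Obese mouse 22 had 40.5% and the Control mice had 42.4%, 44.3%, 41.5%, 39.8% and 42.0%. All 3 MCR mice lay within 32.7% to 33.5% and below every Control mouse. LFCR mice 63 and 67 and LFD mouse 42 were near the MCR mice, while LFCR mouse 72 and LFD mouse 47 were inside the Control range. The group means were 33.0% ± 0.436 (SD, n = 3) in MCR, 36.1% ± 3.74 (SD, n = 4) in LFCR, 37.6% ± 3.07 (SD, n = 3) in LFD, 39.0% ± 1.55 (SD, n = 5) in ICR and 42.0% ± 1.61 (SD, n = 5) in Control. Differences from Control were -8.94, -5.88, -4.38 and -2.98 points in that order. Without LFD mouse 42 the LFD difference was -2.70 points. The promoter means are mostly those of 1st exon CpGs, where MCR differed by -9.44 points, against -4.39 points at TSS200.

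Over 12402 gene body shore CpGs the means were 36.7% ± 0.382 (SD, n = 3) in MCR, 39.7% ± 3.59 (SD, n = 4) in LFCR, 41.2% ± 3.16 (SD, n = 3) in LFD and 42.6% ± 1.48 (SD, n = 5) in ICR, 44.0% in Obese mouse 22 and 45.4% ± 1.60 (SD, n = 5) in Control. Here the differences were -8.67, -5.66, -4.26 and -2.85 points, and -2.52 points for LFD without mouse 42. Within each mouse the gene body shores stood above the promoter shores by nearly the same gap, 3.71 ± 0.116 points in MCR (SD, n = 3) and 3.44 ± 0.140 points in Control (SD, n = 5), with 3.26 to 3.89 points over all 21 mice. In these means shores differed less than shelves and open sea and more than islands. The MCR difference was -5.23 points at promoter islands, -6.93 at gene body islands, -11.1 at gene body shelves and -10.7 in the open sea of gene bodies. Over all CpGs it was -9.31 points. The sets differ in level, and among CpGs of 50 to 70% in ICR mice this order did not hold. There the median MCR differences were -19.3 points at promoter shores and -18.5 at gene body shores. Promoter islands had -23.9 points, gene body islands -18.7, gene body shelves -20.7 and the open sea of gene bodies -20.1. A mean over a chosen set of CpGs is given here as a description, with no test.

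**Figure D2:**
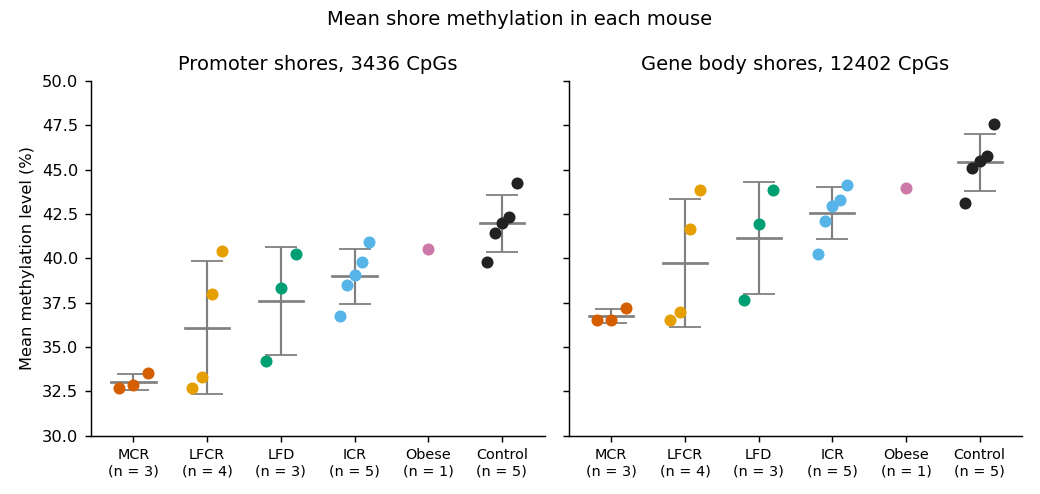
Mean methylation level in percent of promoter shores (left, 3436 CpGs) and gene body shores (right, 12402 CpGs) in each mouse, by group. Points are mice and grey bars the mean and SD, and the axis runs between 30 and 50. The 3 MCR mice lie together at the bottom of each panel, and LFCR splits into 2 low and 2 high mice.

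The size of the difference went with how methylated a CpG was, at shores as over all CpGs. To keep the Control values out of the grouping, CpGs were sorted by their mean in the 5 ICR mice. At promoter shores of 50 to 70% in ICR the median difference of MCR from Control was -19.3 points, and at gene body shores -18.5 points. For LFCR the medians in this bin were -11.5 and -12.1 points. Over all CpGs the median difference of MCR was -19.8 points at 50 to 70% and -0.292 points under 10%. Shores under 10% had medians of -0.347 and -0.437 points in MCR, and shores of 90% or more -6.85 and -5.88 points. The median Control levels of the shores under 10% were 1.43% and 2.51%, which leaves little room for a loss. MCR mice were below Control at 89.4% of the promoter shore CpGs of 70 to 90%, and at 72.4% of those of 10 to 30%. In the 10 to 30% bin the upper quartile was above 0, at 0.644 points in promoters and 3.56 points in gene bodies.

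**Figure D3:**
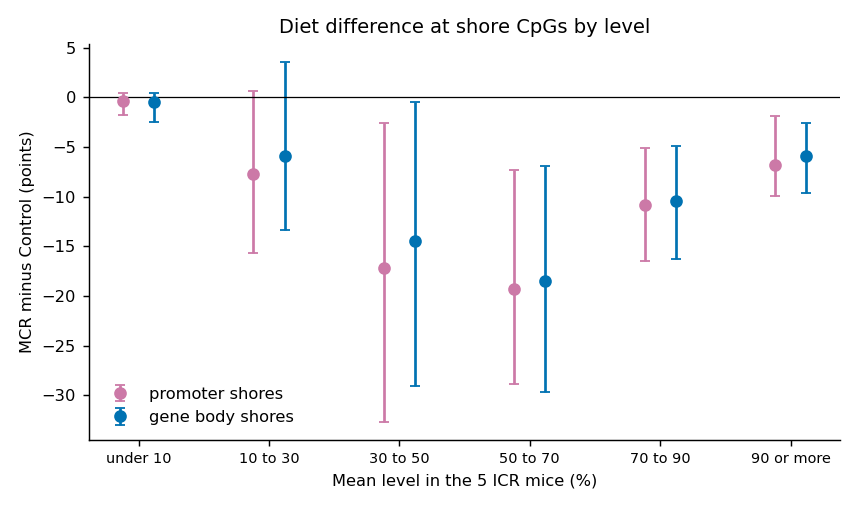
Difference of MCR from Control in points at promoter shore CpGs (left of each pair) and gene body shore CpGs (right of each pair), by the mean level in the 5 ICR mice in percent. Points are medians over CpGs and bars the quartiles. Both classes show the largest median difference at 50 to 70%, -19.3 and -18.5 points, and next to none under 10%. All CpGs of the table had -19.8 points at 50 to 70%.

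MCR fat pads were lower than Control pads at many shore CpGs and higher at fewer, in nearly the same shares as the table at large. With limma at an adjusted p under 0.05 over all 129215 tested CpGs, 1456 promoter shore CpGs were lower and 177 higher, and 5037 gene body shore CpGs were lower and 879 higher. Together this is 33.1% lower and 5.38% higher of 19620 shore CpGs, against 32.8% and 4.54% of all CpGs. The median difference was -6.39 points over shores and -7.30 points over all CpGs. Neighbouring CpGs share reads and mice, so runs of at least 3 shore CpGs of 1 class, each at most 500 bases from the next, were also tested as regions. Of 587 promoter shore regions 311 were lower in MCR and 38 higher. Of 2233 gene body shore regions 1212 were lower and 168 higher. The shares, 53.0% and 54.3% lower, lie close to the 52.0% of all 18775 regions, and 6.47% and 7.52% higher to 6.04%. Promoter islands had 21.2% of regions lower and gene body shelves 63.3%.

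Regions that were higher and regions that were lower sat at different levels. In ICR mice, which are in neither group, the 38 promoter shore regions higher in MCR had a median level of 27.4% and the 311 lower ones 48.8%. In gene body shores these medians were 26.2% and 49.0%. Differences of 20 points or more were seen at 6 of the higher and 94 of the lower promoter shore regions, and at 41 and 329 of those in gene bodies. Neither these counts nor those of groups without overlap were made over all regions, so they show no trait of shores. Every MCR mouse was below every Control mouse at 292 of all 587 promoter regions and 1153 of all 2233 gene body regions, and above at 33 and 153. Leaving out any MCR or Control mouse in turn left 309 to 348 called promoter shore regions and 1173 to 1410 in gene bodies.

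**Figure D4:**
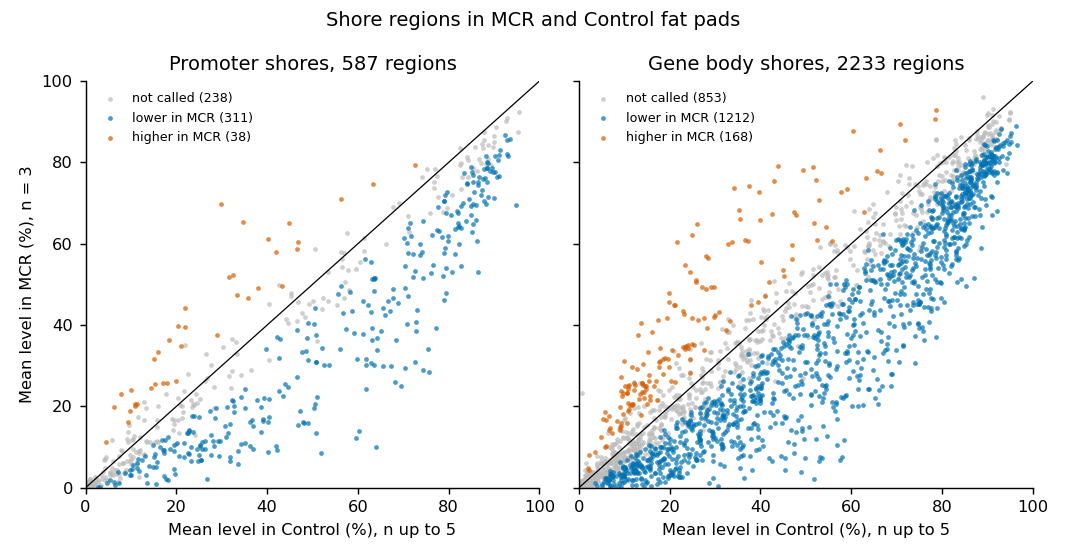
Mean methylation level in percent of each tested shore region in MCR (vertical axis, n = 3) and Control (horizontal axis, n = 3 to 5), for 587 promoter regions (left) and 2233 gene body regions (right). The line marks equal levels and colours mark regions called lower or higher in MCR by limma. Most called points lie below the line, and those above it start at low to middling Control levels.

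Among promoter shores the 6 called regions of largest positive difference in MCR lie at Coro1a, Nfix, Il4i1 with Tbc1d17, Kcnj11, Lag3 and a gene without a symbol. A region of 8 CpGs in the 1st exon of Coro1a (chr7:126702965-126703166, mm10), which encodes an actin-binding protein of leukocytes, had 67.0%, 72.2% and 69.8% in MCR mice, against 40.1%, 20.4%, 33.3%, 28.4% and 27.0% in Control mice. Every MCR mouse was above every Control mouse, and the means were 69.7% ± 2.59 in MCR (SD, n = 3) and 29.8% ± 7.38 in Control (SD, n = 5), a difference of 39.8 points (SE 7.15, limma adjusted p = 0.000608). The other diets had 66.6%, 62.1%, 48.4% and 33.1% in LFCR mice, 61.9%, 38.0% and 45.4% in LFD mice and 40.04%, 61.3%, 38.3%, 41.9% and 39.8% in ICR mice, with 48.3% in Obese mouse 22. LFCR mice 63 and 67, LFD mouse 42 and ICR mouse 103 stood nearest to the MCR mice, and the rest overlapped Control or lay a little above it. At Nfix, a transcription factor (chr8:84702764-84702910), the level was 68.4%, 58.1% and 69.2% in MCR mice, against 28.4%, 25.8%, 38.7%, 47.1% and 33.7% in Control mice, a difference of 30.5 points (SE 6.29, limma adjusted p = 0.00113). Il4i1, an amino acid oxidase secreted by immune cells, and Tbc1d17, a Rab GTPase-activating protein, share a region of 9 CpGs (chr7:44839354-44839494). It had 47.3%, 57.1% and 50.9% in MCR mice, against 26.9%, 30.2%, 36.3%, 34.3% and 30% in Control mice, with no overlap and a difference of 20.2 points (SE 3.13, limma adjusted p = 0.000498).

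Kcnj11, the pore subunit of the ATP-sensitive potassium channel, had the longest of these regions, 19 CpGs over TSS1500, TSS200 and the 1st exon (chr7:46099591-46100467). Its level was 49.4%, 53.5% and 54.4% in MCR mice, against 28.6%, 29.1%, 37.5%, 33.4% and 33.8% in Control mice, and the difference was 19.9 points (SE 2.95, limma adjusted p = 0.000483). Lag3, an inhibitory receptor of T cells (chr6:124911365-124911552), had 64.0%, 65.8% and 53.9% in MCR mice, against 31.7%, 38.8%, 43.8%, 36.5% and 50.1% in Control mice, and the difference was 21.1 points (SE 5.70, limma adjusted p = 0.00543). A 1st exon region with no gene symbol (chr10:81499589-81499648) had 48.2%, 40.7% and 43.5% in MCR mice, against 23.5%, 11.6%, 20.8%, 28.4% and 25.1% in Control mice, and the difference was 22.2 points (SE 5.06, limma adjusted p = 0.00197). The 3 MCR mice were above all 5 Control mice in each of these regions too. The regions were picked as the 6 of largest positive difference, which fixes their direction.

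The largest losses at promoter shores were deeper than the largest gains. Agap2, a GTPase-activating protein, had 2 of the 6 regions. The first, 18 CpGs of the 1st exon at chr10:127079354-127079557, had 8.59%, 9.71% and 11.8% in MCR mice, against 74.8%, 73.2%, 51.7%, 55.8% and 64.9% in Control mice, a difference of -54.1 points (SE 9.71, limma adjusted p = 0.000608). LFCR mice had 6.10%, 11.0%, 31.7% and 56.7%, LFD mice 18.4%, 54.3% and 40.4%, ICR mice 36.5%, 27.9%, 40%, 47.8% and 45.9% and Obese mouse 22 49.8%. LFCR mice 63 and 67 were as low as the MCR mice, while LFCR mouse 72 and LFD mouse 47 were inside the Control range. The second Agap2 region (chr10:127080467-127080701, 5 CpGs) had means of 24.9% ± 3.78 in MCR and 69.4% ± 8.01 in Control (SD, n = 3 and 5), and differed by -44.5 points (SE 7.57, limma adjusted p = 0.000534). At Cd37, a tetraspanin of leukocytes (chr7:45235483-45235639), the level was 5.41%, 18.8% and 17.9% in MCR mice, against 67.4%, 70.2%, 49.8%, 53.7% and 60.5% in Control mice, a difference of -46.3 points (SE 8.61, limma adjusted p = 0.000694). At Amotl2, an angiomotin-like protein of cell junctions (chr9:102720419-102720515), it was 35.5%, 21.2% and 29.9% in MCR mice, against 73.2%, 85.2%, 70.6%, 70.3% and 72.6% in Control mice, a difference of -45.5 points (SE 8.18, limma adjusted p = 0.000608). Control mouse 2 was highest at both.

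The region shared by Mxra8, a matrix remodelling protein of fibroblasts and other stromal cells, and Mxra8os (chr4:155839651-155839735) holds the Mxra8 CpG printed above. Its 4 CpGs had 10.1%, 9.46% and 5.93% in MCR mice, against 52.8%, 60.4%, 52.8%, 38.5% and 54.9% in Control mice, a difference of -43.4 points (SE 8.07, limma adjusted p = 0.000694). At Myo1c, an unconventional myosin (chr11:75650610-75650646, 3 CpGs), the level was 10.7%, 15.2% and 10.8% in MCR mice, against 79.3%, 74.3%, 43.6%, 35.6% and 65.0% in Control mice. The Control mice spread widely there, over 35.6% to 79.3%, without reaching the MCR mice, and the difference was -47.4 points (SE 10.3, limma adjusted p = 0.00148). All 6 regions lie in 1st exons, as do 5 of the 6 higher ones, and Kcnj11 reaches into the TSS1500. The 1st exon also holds 6185 of the 8175 promoter shore CpGs.

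In gene bodies the 6 shore regions of largest positive difference were at Unkl, Trim65, Map4k1, Exoc3l2, Dusp2 and Mapk8ip2. Unkl, a RING finger protein (chr17:25223010-25223227, 6 CpGs), had 71.2%, 77.4% and 72.4% in MCR mice, against 27.0%, 24.1%, 40.1%, 41.5% and 38.1% in Control mice, a difference of 39.5 points (SE 6.06, limma adjusted p = 0.000486). Map4k1, a kinase of blood cells that restrains T cell receptor signalling (chr7:28983374-28983440, 4 CpGs), had 58.0%, 60.7% and 62.3% in MCR mice, against 16.8%, 13.5%, 19.04%, 40.8% and 17.8% in Control mice, a difference of 38.7 points (SE 7.48, limma adjusted p = 0.000808). No MCR mouse reached down to the Control range at either, though Control mouse 10 stood far above its group at Map4k1. Trim65, a ubiquitin ligase (chr11:116130042-116130093), averaged 64.9% ± 9.71 in MCR and 25.9% ± 5.02 in Control (SD, n = 3 and 5). Dusp2, a phosphatase of MAP kinases (chr2:127337604-127337679), averaged 74.1% ± 1.09 and 37.4% ± 14.1, Mapk8ip2, a scaffold of JNK signalling (chr15:89458864-89459065), 79.2% ± 2.60 and 43.9% ± 8.70, and Exoc3l2, an exocyst-related protein (chr7:19472991-19473204), 62.2% ± 14.9 and 24.9% ± 5.80. Their differences were between 35.3 and 39.0 points, with limma adjusted p of at most 0.00288.

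The 6 gene body shores of largest negative difference had little methylation left in MCR. Rhoc, a small GTPase (chr3:104789880-104790148, 7 CpGs), had 4.61%, 6.84% and 9.02% in MCR mice, against 61.6%, 73.5%, 54.0%, 40.9% and 57.7% in Control mice, a difference of -50.7 points (SE 9.24, limma adjusted p = 0.000639). Nek6, a kinase of mitosis (chr2:38512992-38513132, 4 CpGs), had 4.00%, 1.59% and 0.820% in MCR mice, against 63.5%, 59.8%, 48.2%, 35.7% and 51.8% in Control mice, a difference of -49.7 points (SE 9.53, limma adjusted p = 0.000791). At Rhoc the LFCR mice had 4.302%, 6.93%, 30.7% and 49.1%, the LFD mice 13.0%, 44.7% and 33.8%, the ICR mice 33.0%, 26.4%, 42.0%, 39.8% and 44.5% and Obese mouse 22 47.2%. Again LFCR mice 63 and 67 and LFD mouse 42 were the lowest outside MCR. Rnf220, a ubiquitin ligase (chr4:117304010-117304148), averaged 7.68% ± 2.50 in MCR and 57.8% ± 7.45 in Control (SD, n = 3 and 5), Rilpl1, a regulator of cilium content (chr5:124528773-124529532), 11.9% ± 2.48 and 58.3% ± 9.29, and Abr (chr11:76437242-76437323), whose region holds the CpG printed above, 10.4% ± 4.17 and 56.8% ± 7.60. The region shared by AI480526 and Gm38102 (chr5:123135348-123135377) averaged 7.35% ± 4.11 and 53.5% ± 8.06. Differences ran between -50.2 and -46.2 points, with limma adjusted p of at most 0.000684. All 24 regions named here for MCR kept their call without each mouse in turn. They also kept it under each change of coverage minimum, missing values, scale, variance trend or libraries that still formed the region. The named regions were not looked up under changed region rules.

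**Figure D5:**
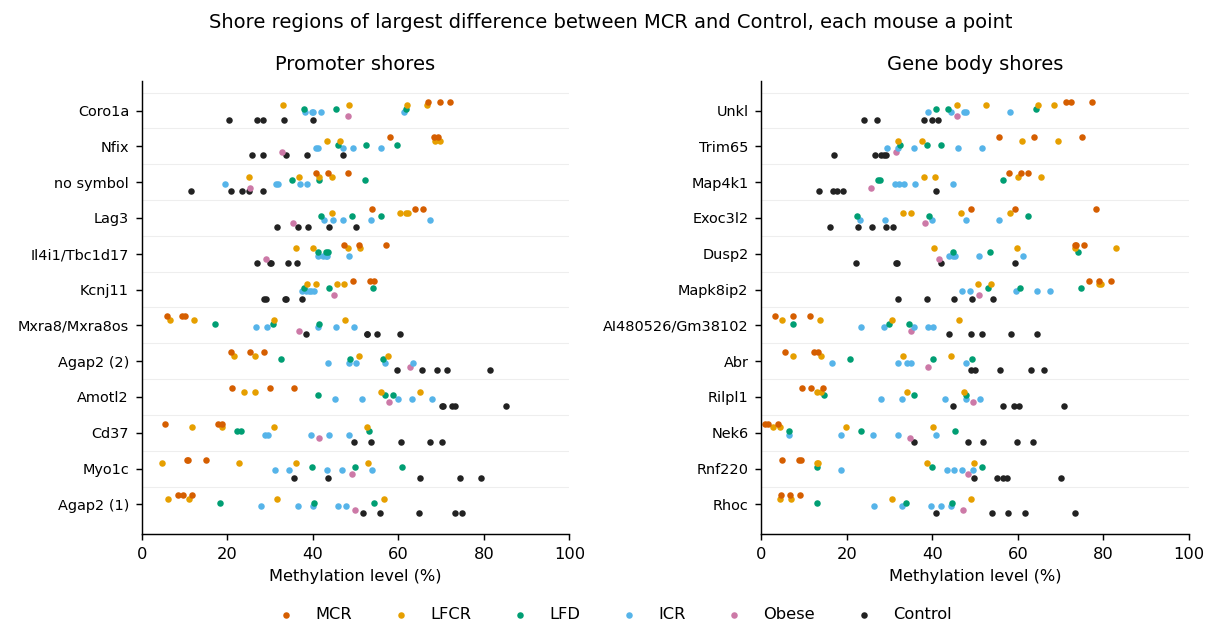
Methylation level in percent of the 12 promoter (left) and 12 gene body (right) shore regions of largest difference between MCR and Control, each point a mouse, coloured by group. Within a row the groups run in the order of the legend from top to bottom. MCR and Control do not overlap in any row, and most LFCR, LFD and ICR mice lie between them. The rows were picked for large differences. Over all shore regions MCR was wholly below Control at 292 of 587 in promoters and 1153 of 2233 in gene bodies, and wholly above at 33 and 153. No such count was made over all regions of the table.

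LFCR shores were lower than Control at fewer CpGs, and these calls rested on 2 mice. By limma 532 promoter shore CpGs were lower and 51 higher, and 1884 gene body shore CpGs were lower and 291 higher. That is 12.3% and 1.74% of shore CpGs, against 12.1% and 1.48% of all CpGs. Among regions 184 promoter and 700 gene body shores were lower and 18 and 87 higher (28.9% lower and 3.11% higher over all regions). Without LFCR mouse 63 or 67 no shore region was called and the CpG count was 3 or 2. Without Control mouse 2 it was 145 CpGs, with 78 promoter and 345 gene body regions. It was 1215 CpGs without Control mouse 1, 1371 without Control mouse 13 and 5103 without LFCR mouse 72. The mean LFCR level stayed below Control in each of these settings. The smallest differences, without LFCR mouse 63, were -4.74 points at promoter shores and -4.59 points at gene body shores.

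The LFCR regions of largest difference were in part those already described for MCR, set against the same Control mice. Those not yet named were Patz1, Caskin2, Dusp5, Nr1d1, Casz1, A530013C23Rik and a region without a symbol (chr19:5455081-5455127). The promoter shore of Patz1, a zinc finger transcription factor (chr11:3291303-3291848, 19 CpGs), had 27.1%, 24.7%, 13.5% and 15.9% in LFCR mice, against 6.36%, 4.81%, 9.48%, 12.3% and 6.30% in Control mice, a difference of 12.5 points (SE 2.63, limma adjusted p = 0.0113). That of Caskin2, a scaffold protein (chr11:115811926-115812349, 11 CpGs), had 25.8%, 29.0%, 52.7% and 57.8% in LFCR mice, against 74.9%, 78.0%, 65.8%, 62.3% and 71.1% in Control mice, a difference of -29.1 points (SE 6.40, limma adjusted p = 0.0113). No LFCR mouse overlapped Control at either. Over all 587 promoter shore regions LFCR was wholly below Control at 77 and wholly above at 6, which was not counted over all regions of the table. In gene bodies Dusp5, a phosphatase of nuclear ERK (chr19:53530362-53530498), averaged 50.7% ± 17.8 in LFCR and 23.3% ± 7.01 in Control (SD, n = 4 and 5), a difference of 27.4 points (SE 6.94, limma adjusted p = 0.014). Nr1d1, a nuclear receptor of the circadian clock (chr11:98772089-98772325), had 27.6%, 27.9%, 57.2% and 58.3% in LFCR mice, against 81.7%, 81.8%, 75.7%, 65.3% and 75.2% in Control mice, a difference of -33.2 points (SE 6.73, limma adjusted p = 0.0113). Casz1, a zinc finger transcription factor (chr4:148951004-148951173), averaged 19.99% ± 12.2 and 52.8% ± 10.7 and A530013C23Rik (chr2:167691634-167692161) 36.5% ± 13.9 and 69.0% ± 10.1. The region without a symbol had 51.0%, 44.5%, 45.0% and 77.6% in LFCR mice, against 90.8%, 87.3%, 78.5%, 88.6% and 89.5% in Control mice, where LFCR mouse 72 was far above the other LFCR mice and still below Control. For Coro1a the LFCR difference was 22.7 points and for the first Agap2 region -37.7 points, against 39.8 and -54.1 points in MCR. Every LFCR call named here was lost without LFCR mouse 63 or 67.

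No shore region or CpG passed the limma threshold in LFD or ICR. At an unadjusted p under 0.05 there were 4095 of 19620 shore CpGs and 899 of 2820 shore regions in LFD, and 2507 and 536 in ICR. Over all features these counts were 24372 of 129215 CpGs and 5018 of 18775 regions in LFD, and 16527 and 3174 in ICR. Over all features 0% of CpGs and 0.00533% of regions were lower in LFD, with 0% of regions higher, and none in either direction in ICR. The median difference over promoter shore regions was -3.22 points in LFD and -2.04 points in ICR, and over gene body shore regions -3.65 and -2.41 points. Without LFD mouse 47, 49 promoter and 243 gene body shore regions were called in LFD, and the CpG count was 7. Without LFD mouse 48 it was 3 CpGs.

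The shore regions of smallest p in LFD included Igfbp6, an inhibitor of insulin-like growth factors (chr15:102145391-102145469, 6 CpGs of the gene body), with 65.9%, 69.97% and 69.5% in LFD mice, against 93.8%, 91.6%, 81.0% and 87.6% in the 4 Control mice that had a value. The groups did not overlap, and the limma adjusted p was 0.0613 for -20.03 points (SE 3.24). It was lower still in MCR, with 56.9%, 57.5% and 62.4%. Grik5, a glutamate receptor subunit (chr7:25071311-25072022), had 34.4%, 39.1% and 43.1% in LFD mice, against 54.3%, 55.7%, 52.6%, 48.8% and 52.4% in Control mice (adjusted p = 0.0897). Htr1d, a serotonin receptor (chr4:136423609-136423678), averaged 64.5% ± 2.53 in LFD (SD, n = 3) and 79.1% ± 2.78 in Control (SD, n = 4, adjusted p = 0.0944). Kcnj11 had 54.2%, 37.9% and 43.8% in LFD mice (adjusted p = 0.0897). In ICR the promoter region of Il4i1 and Tbc1d17 had 43.1%, 48.6%, 42.5%, 43.2% and 41.2%, 12.2 points above Control (SE 2.71, adjusted p = 0.277), and no ICR mouse overlapped Control. Trp73, a relative of the tumour suppressor p53 (chr4:154081792-154081906), had 11.2%, 18.6%, 13.8%, 19.04% and 13.8% in ICR mice, against 22.9%, 23.5%, 21.6%, 21.2% and 23.9% in Control mice (-7.33 points, adjusted p = 0.277). Azin2, a regulator of polyamine synthesis (chr4:128960932-128960987), differed by -10.3 points and Col9a2, a cartilage collagen chain (chr4:121039421-121039555), by -8.23 points (adjusted p = 0.277 for each). The regions were picked for small p in the same mice, so the separation of groups at some of them adds no support.

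A gene body region shared by Grin3b, a glutamate receptor subunit, and Tmem259 (chr10:79975172-79975284, 4 CpGs) was among the smallest p in both LFD and ICR. It had 64.5%, 64.9% and 65.7% in MCR mice, 67.6%, 60.7%, 61.3% and 56.5% in LFCR mice, 64.3%, 62.5% and 61.1% in LFD mice and 60.7%, 64.1%, 58.5%, 58.7% and 58.5% in ICR mice, 56% in Obese mouse 22 and 53.0%, 47.0%, 54.9%, 52.3% and 51.7% in Control mice. Every diet mouse and Obese mouse 22 lay above every Control mouse. The region was picked for its small p in these mice, so this separation adds no support. Its adjusted p was 0.0897 in LFD and 0.277 in ICR.

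Shores were then set against the island they border, within each mouse, which removes a shift of equal points in both and not a loss in equal proportion. There were 1268 shore regions of the rule with an island region at most 2000 bases away, 285 of them in promoters. In promoters the median shore level was 22.6% in MCR and 34.2% in Control, and the median island level 2.43% and 5.36%. In gene bodies the shores had 31.5% in MCR and 39.8% in Control and their islands 3.89% and 6.67%. The step from shore down to island narrowed to a median of 13.6 points in MCR, against 17.8 points in Control. By limma on the within-mouse difference, 101 promoter pairs had a smaller shore-minus-island value in MCR than in Control and 28 a larger one, and in gene bodies 313 and 134. Over all 1427 pairs of the table, which hold these pairs, 31.3% were smaller and 12.9% larger. In LFCR 201 and 83 of the shore pairs were called (15.2% and 6.59% over all pairs), with none without LFCR mouse 63 or 67, 85 without Control mouse 2 and 444 without LFCR mouse 72. None was called by limma in LFD (330 of 1268 shore pairs at an unadjusted p under 0.05, and 361 of all 1427 pairs) or ICR (223 and 248). Without LFD mouse 47 there were 98 in LFD, and without Control mouse 10 73.

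Tapbp, which encodes tapasin of the MHC class I loading complex, had a shore that differed beside an island with next to no methylation in either group. Its promoter shore (chr17:33917519-33918842, 30 CpGs) had 56.8%, 48.2% and 51.1% in MCR mice, against 81.1%, 83.0%, 79.5%, 72.3% and 77.6% in Control mice, with no overlap. The island 1011 bases away (chr17:33919853-33920252) averaged 0% in MCR and 0.485% in Control, and the difference of the differences was -26.2 points (SE 4.05, limma adjusted p = 0.000653). Ephb3, an ephrin receptor, had 22.0% in MCR and 58.3% in Control at the shore (chr16:21205884-21206079) and 2.59% and 11.2% at the island, a difference of -27.7 points (SE 4.41, limma adjusted p = 0.000653). Tnfaip2, a gene induced by tumour necrosis factor, had 46.0% and 68.0% at the shore (chr12:111443821-111443884) and 2.82% and 3.03% at the island, a difference of -21.9 points (SE 3.31, limma adjusted p = 0.000653). In the other direction the island was lower in MCR at all 3 regions. At Isyna1, the enzyme that makes inositol phosphate from glucose phosphate, the shore (chr8:70596776-70596915) had 75.4%, 81.7% and 88.0% in MCR mice, against 78.7%, 80.2%, 80.4%, 75.9% and 79.8% in Control mice. Its island (chr8:70597731-70597908) had 41.7%, 43.5% and 43.2% in MCR mice, against 73.4%, 79.8%, 69.9%, 66.5% and 69.0% in Control mice, and the difference was 31.6 points (SE 4.87, limma adjusted p = 0.000653). Fcho1, a protein of clathrin-coated pits, had 85.4% and 92.2% at the shore (chr8:71711288-71711486) and 29.1% and 64.1% at the island, a difference of 28.3 points (SE 4.02, limma adjusted p = 0.000653). The Grin3b and Tmem259 shore had 65.0% and 51.8% and its island 79.0% and 91.7%, so that shore and island moved in opposite directions by like amounts, a difference of 25.9 points (SE 4.05, limma adjusted p = 0.000653).

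For 238 genes with at least 3 shore CpGs in both the body and the promoter, the gene body shore was compared with the promoter shore within each mouse. In MCR 59 genes had a body-minus-promoter value lower than in Control and 56 a higher one (24.8% and 23.5% of the genes tested, which are these genes alone), with a median difference of -0.261 points. Genes departed in both directions in near equal number. In LFCR the counts were 32 and 30 (13.4% and 12.6%), and 16, 31 and 34 genes in all without LFCR mouse 63, LFCR mouse 67 and Control mouse 2. In LFD and ICR limma called none (74 and 48 at an unadjusted p under 0.05), and 4 in LFD without LFD mouse 47.

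Foxa3, a forkhead transcription factor, had a lower body-minus-promoter value in MCR. Its body CpGs had 42.7%, 48.0% and 49.3% in MCR mice, against 70.3%, 69.6%, 63.3%, 61.0% and 68.1% in Control mice. The promoter CpGs (3, between 19023351 and 19023528 on chromosome 7) averaged 8.94% and 8.13%, and the difference of the differences was -20.6 points (SE 2.71, limma adjusted p = 7.08e-05). Plxna1, a semaphorin receptor, had 41.5% in MCR and 72.5% in Control in the body and 80.8% and 88.6% in the promoter, a difference of -23.1 points (SE 3.36, limma adjusted p = 0.000155). Its 3 CpGs annotated as promoter (chr6:89357038-89357117) lie within the span of its body CpGs (chr6:89355508-89361541). Tmem8b had 22.0% and 53.8% in the body and 6.98% and 9.32% in the promoter, a difference of -29.5 points (SE 4.44, limma adjusted p = 0.000156). The body-minus-promoter value was higher in MCR at Gata3, a transcription factor of luminal mammary cells and T cells. Its body CpGs had 31.6%, 34.4% and 38.3% in MCR mice, against 18.7%, 21.9%, 24.7%, 19.9% and 23.6% in Control mice, while the promoter CpGs averaged 8.38% and 13.2%, a difference of 17.8 points (SE 2.83, limma adjusted p = 0.000167). Promoter and body CpGs of Gata3 alternate along the gene in the annotation. Zfpm1, a cofactor of GATA factors, had 58.2% and 41.5% in the body, over CpGs spread between 122283045 and 122335765 on chromosome 8, and 0.420% and 0.179% in the promoter, a difference of 16.5 points (SE 2.59, limma adjusted p = 0.000167). At Gm10425 the body had 14.2% and 18.01% and the promoter 30.1% and 61.8%, a difference of 27.9 points (SE 4.74, limma adjusted p = 0.000254).

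Gene families that sit in broad island and shore neighbourhoods were mixed. Over all 18775 regions the median MCR difference was -7.79 points. Of 34 shore regions at 22 of 38 Hox genes, which set position along the body axis, 14 were lower and 12 higher in MCR, with a median of -1.44 points. Of all regions 52.0% were lower and 6.04% higher. A gene body region of 26 CpGs shared by Hoxa3 and Hoxa4 (chr6:52190431-52191009) had 25.7%, 24.0% and 29.5% in MCR mice, against 57.1%, 75.1%, 57.7%, 53.8% and 65.2% in Control mice, a difference of -35.4 points (SE 6.73, limma adjusted p = 0.000755). In the same cluster the Hoxa11 region (chr6:52244431-52244956, 17 CpGs) had 30.3%, 30.3% and 32.8% in MCR mice, against 15.9%, 13.9%, 18.9%, 20.7% and 19.9% in Control mice, a difference of 13.3 points (SE 2.24, limma adjusted p = 0.000528). The groups did not overlap at either. Hoxd3 (chr2:74732646-74732684) averaged 31.0% and 17.6% in MCR and Control, a difference of 13.4 points (SE 2.60, limma adjusted p = 0.000822). In LFCR 8 Hox regions were lower and 6 higher, against 28.9% lower and 3.11% higher of all regions, and without LFCR mouse 63 or 67 no shore region was called.

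Beside the same 52.0% lower and 6.04% higher of all regions, among other developmental transcription factors (families such as Pax, Sox, Fox, Tbx, Gata, Lhx, Nkx, Irx, Dlx and Meis) 26 of 89 shore regions were lower and 11 higher in MCR, with a median of -1.56 points. Foxa3 was lower at a gene body region (chr7:19014324-19014521) with 64.3%, 63.3% and 63.5% in MCR mice, against 86.9%, 88.4%, 82.9%, 81.3% and 84.5% in Control mice. Irx3, a homeobox factor linked to adipocyte energy use, was higher (chr8:91799053-91799577, 14 CpGs) with 56.4%, 66.5% and 59.2% in MCR mice, against 34.1%, 34.3%, 39.0%, 38.8% and 40.5% in Control mice. Both separated the groups, by -21.1 points (SE 2.70, limma adjusted p = 0.000449) and 23.4 points (SE 3.77, limma adjusted p = 0.000508). Foxj1, the master factor of motile cilia (chr11:116332408-116332649), averaged 48.5% and 70.9% in MCR and Control, a difference of -22.4 points (SE 3.63, limma adjusted p = 0.000508). For Wnt, Frizzled, Bmp, Smad and Tgfb genes 12 of 27 regions were lower and 2 higher, with a median of -5.44 points. The ligand Wnt10b, which holds back fat cell formation, was at 32.4%, 28.6% and 31.2% in MCR mice, against 75.9%, 87.1%, 67.0%, 63.9% and 76.6% in Control mice at chr15:98774089-98774368, a difference of -43.4 points (SE 7.27, limma adjusted p = 0.00052). Wnt6 (chr1:74783639-74783844) averaged 11.2% and 35.5% and the Wnt10a promoter (chr1:74793454-74793550) 30.2% and 52.4%, differences of -24.3 points (SE 3.94, limma adjusted p = 0.000508) and -22.3 points (SE 3.99, limma adjusted p = 0.000605).

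The metabolic and signalling lists had more lower than higher regions, as the table had. For insulin, IGF and mTOR signalling 6 of 11 shore regions were lower and 2 higher, with a median of -14.4 points, near the 52.0% lower of all regions (6.04% higher, median -7.79 points). Igfbp6 averaged 58.9% and 88.5% in MCR and Control, the growth factor gene Igf2 (chr7:142657283-142657532) 34.2% and 52.4% and the promoter of the kinase subunit Pik3r2 (chr8:70774764-70775302) 67.6% and 82.1%, differences of -29.5 points (SE 3.24, limma adjusted p = 0.000316), -18.2 points (SE 4.05, limma adjusted p = 0.00173) and -14.4 points (SE 2.63, limma adjusted p = 0.000643). Of lipid synthesis and lipolysis genes 3 of 4 regions were lower and none higher (median -14.3 points). These were Mlxipl, the glucose-sensing factor ChREBP (chr5:135108124-135108235), with 4.65% and 21.1%, Srebf1, a regulator of fatty acid synthesis (chr11:60211947-60212718), with 31.99% and 44.1%, and Dgat1, the last enzyme of triglyceride synthesis (chr15:76510810-76511463), with 22.9% and 40.4%. Their differences were -16.5 points (SE 3.33, limma adjusted p = 0.00102), -12.1 points (SE 2.58, limma adjusted p = 0.00136) and -17.6 points (SE 4.05, limma adjusted p = 0.00213). In the inflammation list 3 of 5 regions were lower and 1 higher (median -11.4 points).

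The promoter shore of Socs3, the feedback inhibitor of leptin and interleukin 6 signalling (chr11:117967759-117967844, 6 CpGs), had 20.7%, 19.3% and 18.5% in MCR mice, against 42.4%, 56.6%, 56.9%, 46.1% and 49.4% in Control mice, with no overlap and a difference of -30.8 points (SE 4.92, limma adjusted p = 0.000508). Tnfrsf1a, a receptor of tumour necrosis factor (chr6:125360343-125360476), averaged 54.3% and 77.4% in MCR and Control, and Irf8, a transcription factor of myeloid cells (chr8:120736653-120737050), 26.3% and 20.2%, differences of -23.1 points (SE 5.39, limma adjusted p = 0.00228) and 6.08 points (SE 1.87, limma adjusted p = 0.0113). Of the DNA methylation machinery 2 of 14 genes had a tested shore region, and 3 of 4 regions were lower (median -17.2 points), beside 52.0% lower and 6.04% higher of all regions. At Tet3, an enzyme that oxidizes methylated cytosine, the gene body region (chr6:83439852-83439895) had 10.0%, 15.2% and 8.87% in MCR mice, against 49.7%, 43.1%, 41.9% and 49.7% in the 4 Control mice with a value, a difference of -34.7 points (SE 6.53, limma adjusted p = 0.000877). The Tet3 promoter region (chr6:83455017-83455366) averaged 44.1% and 50.6%, and Dnmt3l, a cofactor of the de novo methyltransferases, in a region shared with Aire (chr10:78042470-78042651), 62.7% and 74.8%, differences of -6.46 points (SE 1.83, limma adjusted p = 0.00721) and -12.1 points (SE 4.00, limma adjusted p = 0.0175). In LFD and ICR no region of these lists was called by limma.

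Markers of the cell types a fat pad can hold were few among shores. No shore region at an adipocyte or basal epithelial marker was tested, so the labelled tissue could not be checked on its defining markers here. Luminal epithelial markers had 11 regions at 4 of 18 genes, 2 lower and 1 higher in MCR (median -1.61 points), beside 52.0% lower and 6.04% higher of all regions and their median of -7.79 points. The mean level of the luminal regions ranged over 23.5% to 26.3% in MCR mice and 22.0% to 26.8% in Control mice. A Gata3 gene body region of 28 CpGs (chr2:9876605-9877208) had 41.4%, 42.0% and 46.7% in MCR mice, against 21.8%, 18.2%, 27.5%, 23.6% and 23.3% in Control mice, a difference of 20.5 points (SE 3.37, limma adjusted p = 0.000508). The promoter of Cldn4, a claudin (chr5:134945296-134945978), averaged 54.6% and 70.4%, and a Gata3 5'UTR region (chr2:9881538-9881926) 9.19% and 17.3%, differences of -15.8 points (SE 4.06, limma adjusted p = 0.00402) and -8.16 points (SE 2.38, limma adjusted p = 0.00905). Leukocyte markers had 3 regions at 2 of 20 genes, with the Coro1a promoter higher, the Cd37 promoter lower and the Coro1a body region (chr7:126704226-126704636) at 2.59% and 1.57% in MCR and Control. Their mean ranged over 25.1% to 31.1% in MCR mice and 27.9% to 36.8% in Control mice. The macrophage region at Spi1 (chr2:91113295-91113430) was at 72.7% and 67.8% and not called (limma adjusted p = 0.342). The endothelial region at Nos3 (chr5:24383325-24383951) was lower, at 12.6% and 26.4%, a difference of -13.8 points (SE 2.88, limma adjusted p = 0.00119), as was the fibroblast region at Mxra8. Of the muscle regions Acta1 (chr8:123894401-123894455) was lower, at 21.4% and 38.1% in 3 mice each, a difference of -16.7 points (SE 5.37, limma adjusted p = 0.0161), and Ckm (chr7:19420384-19420975) was at 27.4% and 27.2% and not called. The part of the cell mix in the shore differences was not tested.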

How the data were processed

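Methylation was measured by RRBS in 25 fat pad libraries, 1 per mouse. The authors deposited a single table with the methylated fraction per CpG and library and 1 coverage signal per CpG, which is a whole multiple of 1 read over 21 libraries. Bismark and mm10 are named per the submitters' processing notes; versions, filters and trimming are not given in the sources used here. With fractions only, a count model could not be used, and CpGs of high and low depth weigh the same. The 332231 rows hold some CpGs more than once, and each CpG was used once, with the annotation of its first row. A linear model with 1 term per group, its variance moderated across all features (limma 3.58.1 in R 4.3.3), was run on 21 libraries at a coverage of at least 10 reads, and p-values were two-sided and adjusted by Benjamini-Hochberg over all CpGs, regions, pairs or genes. It was tested on simulated data. A region level needs a value at 0.5 or more of its CpGs in a mouse and is adjusted for the missing ones. Regions named are the 6 of largest difference per direction and class among those called with a value in every mouse of both groups, or the 3 of smallest p where none was called; for pairs, genes and lists the 3 of smallest p. The text gives a part of these. Separation of the groups at a region named in this way follows in part from the choice. The members and lists were chosen with earlier results of these data known. Alternatives changed the coverage minimum, missing values, scale, variance trend, region rules and libraries, or left out each mouse. Figures used matplotlib 3.10.9 (Python 3.11.15).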

Additional observations from a re-analysis of the deposited data

Results flagged for a closer look

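In all, 147 sets of values of 1 group were checked, at 39 named regions, 8 printed CpGs and the mean promoter and gene body shore levels. Of these, 11 held a mouse far from the others of its group, where chance alone gives about 1 such set in 20. The sets share the same mice and are not independent. ICR mouse 103 stood apart in 4 of them. At the Coro1a promoter shore it had 61.3%, against 38.3% to 41.9% in the other ICR mice. At the Il4i1 and Tbc1d17 promoter shore it had 48.6%, against 41.2% to 43.2%. At the Patz1 promoter shore it had 18.4%, against 11.2% to 12.6%. At the Rnf220 gene body shore it had 18.7%, against 43.5% to 49.6%. It was also the lowest ICR mouse in mean promoter shore level. At the Lag3 promoter shore LFCR mouse 72 had 44.6%, against 60.5% to 62.4% in the other LFCR mice. Control mouse 2 had 85.2% at the Amotl2 promoter shore, against 70.3% to 73.2% in the other Control mice. It had 17.1% at the Trim65 gene body shore, against 26.6% to 29.1%. It had 41.2% at a gene body shore without a symbol (chr10:127171245-127171751), against 34.1% to 36.0%. Control mouse 10 had 40.8% at the Map4k1 gene body shore, against 13.5% to 19.04% in the other Control mice. It had 35.6% at the Dusp5 gene body shore, against 19.03% to 22.2%. Control mouse 5 had 78.5% at the gene body shore without a symbol on chromosome 19, against 87.3% to 90.8%. 

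The libraries outside the comparisons carried methylation where the others had next to none. At promoter shores under 5% in Control the mean was 48.0% in Obese mouse 27, 48.5% in Obese mouse 28, 48.6% in Obese mouse 40 and 48.9% in LFD mouse 46.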

How the results depend on the processing

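No mean difference and no named region turned in direction in any alternative where it was checked, and counts were not checked for direction. Named regions were not looked up under changed region rules or the minimum of 10 points. The margin was a set ratio for counts, met too where none was called either way, and the Control SD for means. Of the alternative values for counts and means 340 stayed within the margin and 49 did not, and for named regions 775 kept their side of the threshold, 60 lost the call and 8 gained one. With all 25 libraries the counts were 3245 CpGs, 134 promoter and 575 gene body regions in MCR and 295 CpGs, 37 promoter and 179 gene body regions in LFCR. Fewer were tested there, 12612 shore CpGs, 389 promoter and 1466 gene body regions. Without the 1st exon 75 of 142 promoter regions were called in MCR and 46 of 142 in LFCR, where fewer CpGs entered. With at least 5 CpGs 213 of 303 promoter and 860 of 1211 gene body regions were called in MCR. In the main fit these were 349 of 587 and 1380 of 2233. For the gene body set against the promoter, at least 5 CpGs gave 60 of 111 genes in MCR and 31 of 111 in LFCR. A difference of at least 10 points left 501 of 2233 gene body regions in LFCR. Shares over all features were not counted in these settings. Islands at most 1000 bases away left 376 of 919 pairs in MCR and 186 of 919 in LFCR. The arcsine square root of the level left 175 of 1268 in LFCR, for which the cause was not tested. In LFD 2 CpGs were called among those with a value in all 21 libraries, and 1 gene body region at a coverage of 20 and 1 with a shorter gap between neighbours.

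Leaving out each mouse in turn gave 2 to 5103 CpGs, 0 to 286 promoter regions, 0 to 1097 gene body regions, 0 to 444 shore and island pairs and 16 to 91 genes in LFCR. In LFD it gave 0 to 7 CpGs, 0 to 49 promoter regions, 0 to 243 gene body regions, 0 to 98 pairs and 0 to 4 genes. The LFD difference in mean level was -5.70 to -2.70 points at promoter shores and -5.61 to -2.52 points at gene body shores. MCR kept 5903 to 7770 CpGs, and ICR had none called by limma in any of these. No paired analysis was possible because every mouse has its own number in the labels. Depth per library is unknown, so the precision of a level of 1 mouse at 1 CpG cannot be given, and CpGs of low coverage are the least precise.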
